A study of Mus musculus with 8 samples.

Results

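Axon guidance ligands and receptors are described here in mouse neuronal cultures, through the peaks of H3K27ac (acetylation of histone H3, a mark of active promoters and enhancers) found at their genes. The genes were taken by symbol from the protein-coding genes of the mm10 assembly: all that start with Sema, Plxn, Epha, Ephb, Efna, Efnb, Robo or Unc5, or with Slit or Ntn and a digit, together with Dcc, Nrp1 and Nrp2, and without the Slitrk genes. This gave 71 of 21631 protein-coding genes on chromosomes 1 to 19 and X. Of these 71, 67 had enough called length to be tested, among 14364 genes tested in all, and Epha2, Sema3d, Robo3 and Robo4 did not. Unc50 is in the list by its letters alone: it codes for a membrane protein of the secretory pathway and is no netrin receptor. Unc5cl is related to the UNC5 receptors but lacks their netrin-binding outer part.

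These genes make up 4 classical signalling systems that steer growing axons and migrating neurons. Semaphorins act through plexins and neuropilins, ephrins through Eph receptor kinases, Slits through Robo receptors, and netrins through DCC, which mediates attraction, and UNC5 proteins, which mediate repulsion. Several are known to guide interneurons from the medial ganglionic eminence to the cortex, and many remain in use at maturing synapses.

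The study is a chromatin immunoprecipitation and sequencing experiment on primary neurons of C57/BL6 mouse embryos, with 8 libraries in 4 groups of 2. The groups are MGE cultures with KCl, MGE cultures left unstimulated, CTX cultures with KCl and CTX cultures left unstimulated. MGE is the usual abbreviation of medial ganglionic eminence and CTX of cortex, which the labels do not spell out. All 4 groups were silenced overnight from day 6 in vitro with 1 µM TTX, which blocks sodium channels, and 100 µM D-AP5, which blocks NMDA receptors, so the unstimulated neurons carry that treatment too. On day 7 the KCl groups were depolarised with 55 mM KCl for 2 h. Titles number the 2 libraries of each group as BioRep 1 and BioRep 2, that is as biological replicates, without saying whether these were separate litters, dissections or cultures, so the p-values speak of the scatter among these 8 libraries. Titles of the CTX libraries name embryonic day 14 while the source field of every library names day 16, and the cell type field reads cortical also for MGE libraries, so that groups were taken from the titles.

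Between 36035 and 66827 peaks were called per library, over 21.1 to 44.7 Mb. CTX KCl library 2 and CTX unstimulated library 2, with 44.7 and 42.9 Mb, covered the most, and the other 6 lists covered 21.1 to 32.0 Mb. The authors' fold enrichment and q-value belong to a peak and read counts were not used here, so depth is unknown and a gene missing from a list is not shown to lack the mark. Called length therefore stands in for the mark: for each gene, the bases inside peaks within its span and 20 kb to each side, divided by the megabases called in that library (bp per Mb). Levels given in groups of 4 below follow the order KCl 1, KCl 2, unstimulated 1 and unstimulated 2. Marker genes of the named cell types were checked: MGE and GABAergic genes summed to 2701 to 3112 bp per Mb in the MGE libraries, against 1786 to 2002 in the CTX libraries, and cortical glutamatergic genes to 416 to 659.9 bp per Mb in the MGE libraries, against 725 to 1258 in the CTX libraries. By the test used below, 7 of 16 MGE and GABAergic genes tested were called higher in MGE, and 1, Satb1, was called lower. Of 11 cortical glutamatergic genes tested, 8 were called lower in MGE and 0 higher.

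The first comparison is of the 4 MGE with the 4 CTX libraries. Called length was higher in MGE at 12 guidance genes and lower at 18 of the 67 tested, by limma with Benjamini-Hochberg adjustment over all 14364 genes at adjusted p under 0.05. Over all genes tested, 11.2% were called higher and 12.1% lower. The genes higher in MGE included the semaphorins Sema6d and Sema3c, the Eph receptors Epha8 and Epha6 and the netrin receptor gene Unc5d. Those lower in MGE included the plexin gene Plxna2, the semaphorins Sema3f, Sema5b and Sema4d and the netrin receptor gene Unc5b. The median log2 fold change was 0.15 over the 67 genes and 0.13 over all genes tested.

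**Figure D1:**
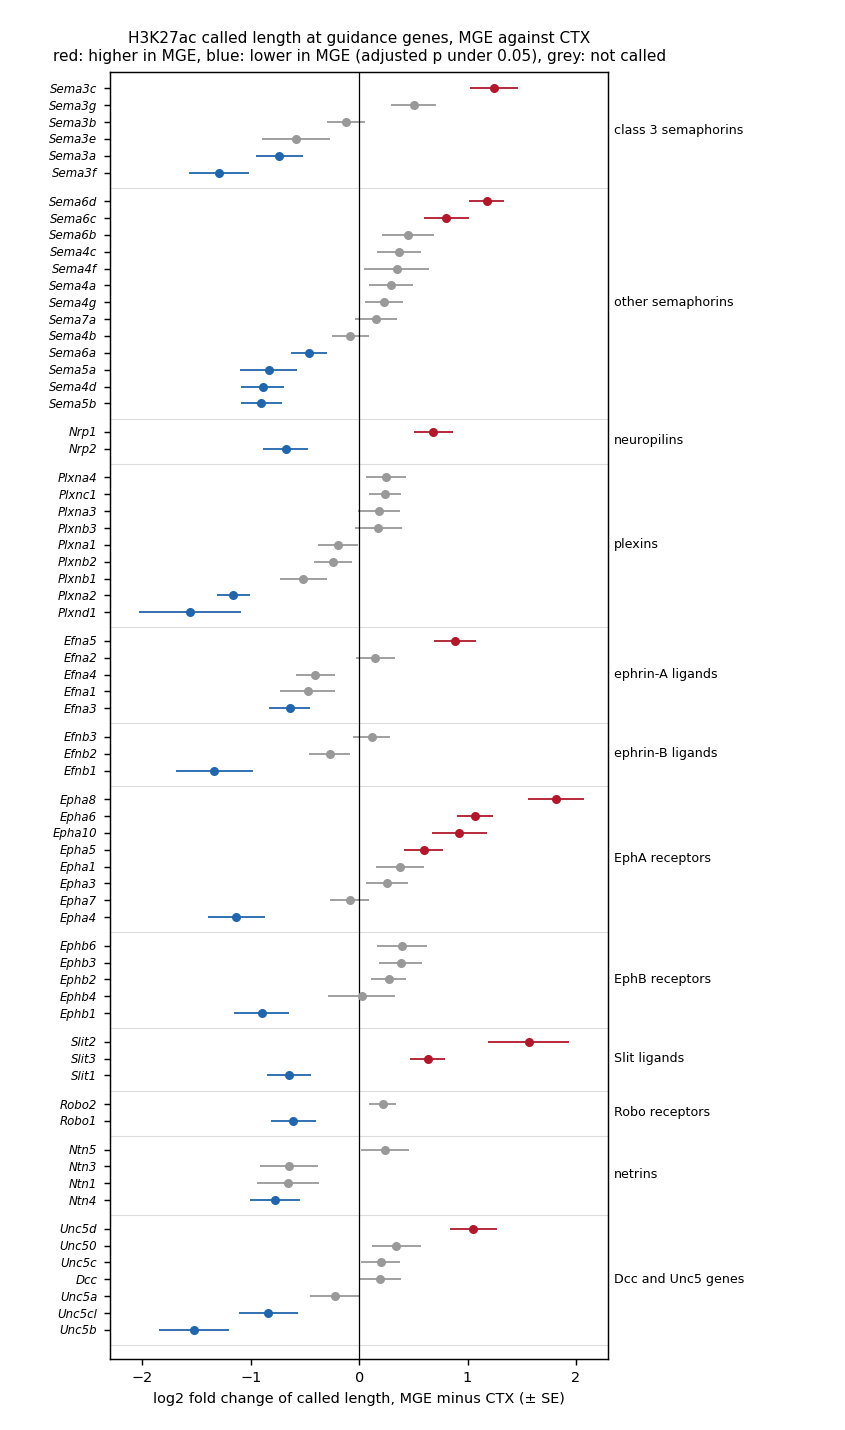
Each point is the log2 fold change of called length, MGE minus CTX, of 1 of the 67 guidance genes tested, with its SE as the bar, grouped by family. Red points mark the 12 genes called higher in MGE and blue points the 18 called lower, and the EphA receptors hold 4 red points and 1 blue one while the plexins hold 2 blue ones and 0 red.

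The groups were fully separated at 15 of the 67 genes. All 4 MGE libraries lay above all 4 CTX libraries at 10 of them (background 10.9% of genes tested), and below at 5 (background 9.61%). Within the KCl-treated libraries alone all 30 called genes kept their sign and 17 were called. Within the unstimulated libraries alone all 30 kept their sign and 16 were called. The 30 were chosen by the mean of both differences in these same libraries. The kept signs are thus largely fixed by that choice and are no separate support. Testing needed a mean of at least 20 bp per Mb over the 8 libraries. Plxnd1, Unc5b and Efnb1 had a mean below this in MGE, and Epha8 in CTX. They passed the filter only through the other culture, where they were high. For 12 of the 30 the call also held when each of the 8 libraries was left out in turn: Sema6d, Sema3c, Sema6c, Epha8, Epha6, Efna5 and Unc5d, higher in MGE, and Plxna2, Sema3f, Sema5b, Sema4d and Unc5b, lower in MGE. Peaks in neighbouring genes count in a window, and so in the densities per kb of window given below. With the gene span only, 55 guidance genes passed the filter. With bases inside other genes left out, 62 passed and 31 were called, among them 28 of the 30. The number called fell to 17 without CTX KCl library 2 and to 19 without CTX KCl library 1.

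The MGE lists covered 21.1 to 32.0 Mb and the CTX lists 23.5 to 44.7 Mb, and the counts moved with the scaling to the bases called. Without it 1 guidance gene was called higher and 6 lower (over all genes, 246 higher and 1514 lower, against 1602 and 1742 with it), and the median log2 fold change over all genes was -0.28. With every list cut to equal called bases by q-value, 10 were called higher and 8 lower, and that median was -0.13. Plxna2, Sema4d, Sema5b, Efna3 and Epha8 were called with the scaling, without it, at equal bases and after centring each library on its median gene. With the gene span only, Sema4d and Efna3 were not called.

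Markers of other cells moved with the cultures. Genes of the oligodendrocyte lineage summed to 120.0 to 220.3 bp per Mb in the MGE libraries, against 482 to 669 in the CTX libraries (5 of 6 tested lower in MGE), those of astrocytes to 215 to 467 bp per Mb in the MGE libraries, against 504 to 635 in the CTX libraries (2 of 6 lower) and those of progenitors to 226 to 383 bp per Mb in the MGE libraries, against 399 to 588 in the CTX libraries (3 of 6 lower). Those of microglia summed to 128 to 203 bp per Mb in the MGE libraries, against 68.4 to 112 in the CTX libraries (1 of 2 higher) and those of endothelial and mural cells to 158 to 235 bp per Mb in the MGE libraries, against 180.1 to 317 in the CTX libraries (1 of 3 lower). Of the markers listed, Nkx2-1, Lhx8, Cx3cr1, Csf1r, Cldn5 and Kdr had no called base in any CTX library, and Lhx8, Neurod1, Neurod6, Emx1, Slc17a6, Aqp4, Cspg4, Cx3cr1, Cldn5 and Kdr had none in any MGE library. The part of these other cells in the results at guidance genes was not tested. In such bulk cultures fewer cells of a type cannot be told apart from less of the mark per cell.

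Semaphorins are the largest family of ligands, and the secreted class 3 members signal through neuropilins and plexins. Sema3c (at chromosome 5, 17574816 to 17730268), a secreted cue for migrating cells and cortical axons, had 95.8, 90.6, 87.1 and 67.5 bp per Mb in the MGE libraries, against 36.6, 38.9, 15.97 and 32.8 in the CTX libraries. Every MGE library lay above every CTX library, and limma called the gene (log2 fold change 1.25, SE 0.22, adjusted p = 2.2e-04). Sema3f (at chromosome 9, 107681499 to 107710475), which repels through NRP2, went the other way with 21.5, 35.3, 21.6 and 37.6 bp per Mb in the MGE libraries, against 97.7, 115, 35.1 and 117 in the CTX libraries (log2 fold change -1.29, SE 0.28, adjusted p = 0.0014). The groups touched there, since CTX unstimulated library 1 fell among the MGE values.

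Sema3a, the secreted ligand that collapses growth cones through NRP1, was also lower in MGE, with 82.8, 89.9, 38.8 and 84.6 bp per Mb in the MGE libraries, against 213, 138, 94.9 and 85.3 in the CTX libraries (log2 fold change -0.74, SE 0.22, adjusted p = 0.016). Its groups overlapped at the level of the unstimulated CTX libraries, and the call was lost without MGE unstimulated library 1 (adjusted p = 0.131) or CTX KCl library 1 (adjusted p = 0.112). Sema3b and Sema3g, secreted semaphorins with compact genes, carried the densest called length of the class, 71.2 and 41.4 bp per kb of window on average over the libraries. The window of Sema3b takes in 6 other genes, whose peaks count there too. They had 108 to 133 bp per Mb in the MGE libraries and 114 to 147 in the CTX libraries at Sema3b, and 76.7 to 102 bp per Mb in the MGE libraries and 47.9 to 77.6 in the CTX libraries at Sema3g, and neither was called (log2 fold changes -0.12 and 0.50, adjusted p = 0.65 and 0.084). Sema3e, taken up below with KCl, was not called between cultures (adjusted p = 0.2), and Sema3d, below the filter, had 11.7, 24.0, 0 and 0 bp per Mb in the MGE libraries, against 31.8, 15.0, 0 and 19.8 in the CTX libraries.

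Among the membrane-bound semaphorins Sema6d stood out by its size. Sema6d (at chromosome 2, 124089943 to 124667789), whose product binds plexin A1, had 778, 514, 799 and 738 bp per Mb in the MGE libraries, against 279, 407, 218 and 338 in the CTX libraries. The lowest MGE library lay above the highest CTX library (log2 fold change 1.176, SE 0.16, adjusted p = 1.6e-05). Without scaling to the bases called the log2 fold change was 0.70 and no longer called (adjusted p = 0.30). Sema6c (at chromosome 3, 95160420 to 95174050), a close relative, had 64.4, 62.7, 87.2 and 103 bp per Mb in the MGE libraries, against 57.4, 35.1, 34.2 and 37.5 in the CTX libraries and its groups were likewise separate (log2 fold change 0.80, SE 0.21, adjusted p = 0.0066).

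Sema5b, Sema4d, Sema5a and Sema6a were lower in MGE. Sema5b (at chromosome 16, 35541154 to 35664261), a semaphorin with thrombospondin repeats, had 64.2, 113, 106 and 87.4 bp per Mb in the MGE libraries, against 196, 177, 158 and 186 in the CTX libraries (log2 fold change -0.90, SE 0.19, adjusted p = 0.0012). Sema4d (at chromosome 13, 51685529 to 51793678), the ligand of plexin B1, had 64.4, 61.7, 34.6 and 48.4 bp per Mb in the MGE libraries, against 71.6, 98.1, 113 and 141 in the CTX libraries (log2 fold change -0.89, SE 0.20, adjusted p = 0.002). At both genes every MGE library lay below every CTX library. Sema4d was not called with the gene span only or in the KCl-treated libraries alone, and Sema5b was not called in the unstimulated libraries alone.

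Sema5a, the paralogue of Sema5b, had 73.8, 101, 23.6 and 55.2 bp per Mb in the MGE libraries, against 83.3, 115, 72.9 and 204 in the CTX libraries, and Sema6a, a ligand of plexins A2 and A4, had 103, 97.9, 136 and 152 bp per Mb in the MGE libraries, against 148, 163, 195 and 174 in the CTX libraries. Their groups overlapped and both calls were weak, with log2 fold changes of -0.84 (adjusted p = 0.026) and -0.46 (adjusted p = 0.046). That of Sema6a was lost whichever library was left out (adjusted p 0.0586 to 0.17), and that of Sema5a without any of 5 libraries, both KCl-treated CTX ones, CTX unstimulated library 2, MGE KCl library 1 or MGE unstimulated library 1 (adjusted p 0.0698 to 0.202). The other 7 transmembrane or anchored semaphorins, Sema4a, Sema4b, Sema4c, Sema4f, Sema4g, Sema6b and Sema7a, were not called, with log2 fold changes of -0.08 to 0.45. Sema4g and Sema4c had the densest called length of the group, 80.7 and 69.5 bp per kb of window, and had 147 to 180.2 bp per Mb in the MGE libraries and 119 to 177 in the CTX libraries at Sema4g, and 119 to 179 bp per Mb in the MGE libraries and 78.3 to 174 in the CTX libraries at Sema4c.

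The 2 neuropilin genes, which code for the binding subunits of class 3 semaphorin receptors, moved in opposite directions. Nrp1, the receptor subunit for SEMA3A, had 182, 132, 156 and 214 bp per Mb in the MGE libraries, against 108, 105, 88.8 and 103 in the CTX libraries. The MGE libraries were all above the CTX libraries (log2 fold change 0.68, SE 0.18, adjusted p = 0.0074), though the call was just lost without MGE KCl library 1 (adjusted p = 0.0536) or MGE unstimulated library 2 (adjusted p = 0.0578). Nor was Nrp1 called with the gene span only, without scaling to the bases called or in the KCl-treated libraries alone. Nrp2, the subunit for SEMA3F, had 89.5, 148, 51.8 and 79.9 bp per Mb in the MGE libraries, against 146, 131, 119 and 191 in the CTX libraries with overlap at MGE KCl library 2 (log2 fold change -0.68, SE 0.21, adjusted p = 0.02). The Nrp2 call was lost without any of 5 libraries (MGE KCl 1, MGE unstimulated 1, CTX KCl 1, CTX KCl 2 or CTX unstimulated 2, adjusted p 0.0694 to 0.128), and the direction turned with peaks of −log10 q of at least 5 only (log2 fold change 0.70).

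**Figure D2:**
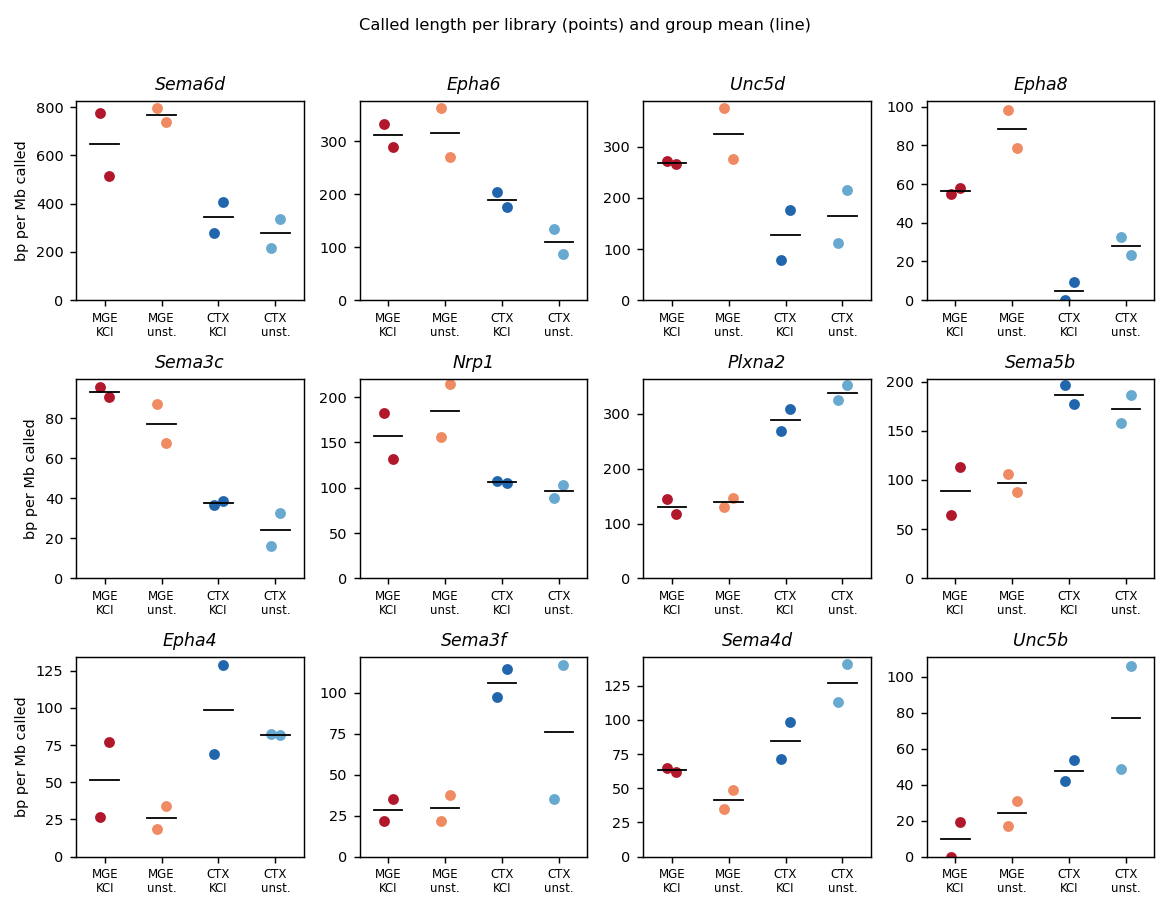
Called length in bp per Mb called of 12 guidance genes, with 1 point per library, a line at each group's mean and both MGE groups to the left of both CTX groups. Sema6d lies at 514 bp per Mb or more in MGE and at 407 or less in CTX, while Plxna2 lies at 147 or less in MGE and at 269 or more in CTX.

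Plexins are the signalling receptors of semaphorins, and Plxna2 was called lower in MGE. Plxna2 (at chromosome 1, 194619791 to 194816869), a receptor for SEMA6A and SEMA3 complexes, had 144, 117, 131 and 147 bp per Mb in the MGE libraries, against 269, 308, 325 and 352 in the CTX libraries. Both groups were tight and far apart (log2 fold change -1.16, SE 0.15, adjusted p = 1.1e-05). It was called in 21 of the 22 alternative settings, the exception being peaks of −log10 q of at least 5 only.

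Plxnd1, the receptor of SEMA3E, was called lower in MGE from few peaks, with 0, 0, 29.0 and 0 bp per Mb in the MGE libraries, against 0, 34.6, 70.3 and 72.9 in the CTX libraries (log2 fold change -1.56, SE 0.47, adjusted p = 0.018). The gene passed the filter only through its CTX libraries. It was at 0 in 3 MGE libraries and 1 CTX library, and the call was lost without CTX KCl library 2 (adjusted p = 0.218) or CTX unstimulated library 2 (adjusted p = 0.0546). The other 7 plexin genes were not called, with log2 fold changes of -0.51 at Plxnb1, the SEMA4D receptor, to 0.25 at Plxna4. Plxnb2 and Plxnb1 were the densest, at 68.8 and 52.0 bp per kb of window. Plxnb2 had 120.3 to 159.9 bp per Mb in the MGE libraries and 136 to 206 in the CTX libraries, Plxnb1 had 48.8 to 113 bp per Mb in the MGE libraries and 109.7 to 169 in the CTX libraries, and Plxna4, a coreceptor for SEMA3A, had 175 to 322 bp per Mb in the MGE libraries and 143 to 272 in the CTX libraries. Summed over the 9 plexin genes, called length was 986, 1048, 1159 and 1159 bp per Mb in the MGE libraries, against 1220.1, 1238, 1313 and 1387 in the CTX libraries, lower in every MGE library, with a ratio of the means of 0.844; the sums overlapped without scaling to the bases called (ratio 0.586).

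Ephrins are ligands tethered to the membrane, of type A by a lipid anchor and of type B by a membrane-spanning stretch. Efna5 (at chromosome 17, 62602957 to 62881317), a repellent ligand of many EphA receptors, had 131, 119, 93.3 and 75.9 bp per Mb in the MGE libraries, against 69.5, 73.6, 30.1 and 41.8 in the CTX libraries. The lowest MGE value, in unstimulated library 2, lay just above the highest CTX value, and the gene was called (log2 fold change 0.89, SE 0.19, adjusted p = 0.0016). Efna5 was not called with the gene span only, without scaling to the bases called or in the KCl-treated libraries alone. Efna3 went the other way, with 49.5, 65.6, 54.1 and 60.3 bp per Mb in the MGE libraries, against 98.4, 88.9, 107 and 85.6 in the CTX libraries (log2 fold change -0.64, SE 0.19, adjusted p = 0.018), and again the groups did not overlap. That call was lost without any of 4 libraries (MGE KCl 1, MGE unstimulated 1, CTX KCl 1 or CTX unstimulated 1, adjusted p 0.0611 to 0.0955).

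The windows of Efna3 and its neighbour Efna4 share bases, so these genes are not separate measurements. Efna3 was not called with the gene span only or with bases inside other genes left out. Efna4, at 77.0 bp per kb of window, and Efna2, at 60.6, were the densest of the family and not called, with 81.7 to 115 bp per Mb in the MGE libraries and 101 to 166 in the CTX libraries at Efna4, and 85.7 to 135 bp per Mb in the MGE libraries and 86.8 to 109.7 in the CTX libraries at Efna2. Efna1 was not called (adjusted p = 0.2). Of the ephrin-B genes, Efnb1 was called lower in MGE with 12.8, 37.6, 0 and 23.9 bp per Mb in the MGE libraries, against 82.2, 66.9, 21.6 and 56.7 in the CTX libraries (log2 fold change -1.34, SE 0.36, adjusted p = 0.0085), and the groups overlapped. Without CTX KCl library 1, CTX KCl library 2 or CTX unstimulated library 2 it was not called (adjusted p 0.0584 to 0.0798). Efnb3, the densest guidance gene of all at 93.4 bp per kb of window, had 135 to 195 bp per Mb in the MGE libraries and 122 to 189 in the CTX libraries, and Efnb2, an ephrin also known from blood vessels, had 68.5 to 99.5 bp per Mb in the MGE libraries and 80.1 to 143 in the CTX libraries, neither being called (log2 fold changes 0.12 and -0.27, adjusted p = 0.65 and 0.33).

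Of the 8 EphA receptor kinase genes tested, 4 were called higher in MGE and 1 lower. Epha8 (at chromosome 4, 136929419 to 136956859) had 54.9, 57.9, 98.3 and 78.9 bp per Mb in the MGE libraries, against 0, 9.37, 32.7 and 23.3 in the CTX libraries. It had no called base in CTX KCl library 1 and the groups did not overlap (log2 fold change 1.82, SE 0.26, adjusted p = 2.8e-05). Epha6 (at chromosome 16, 59641433 to 60610911) had 333, 289.9, 363 and 270.0 bp per Mb in the MGE libraries, against 203, 176, 134 and 87.3 in the CTX libraries, again without overlap (log2 fold change 1.07, SE 0.17, adjusted p = 7.2e-05).

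Epha10, whose kinase domain is thought to be inactive, had 97.6, 138, 199 and 127 bp per Mb in the MGE libraries, against 109, 77.1, 26.0 and 84.2 in the CTX libraries (log2 fold change 0.92, SE 0.25, adjusted p = 0.0098), and Epha5, a receptor of ephrin-A5, had 220.2, 217, 276 and 258 bp per Mb in the MGE libraries, against 213, 125, 181 and 124 in the CTX libraries (log2 fold change 0.60, SE 0.18, adjusted p = 0.018). The groups overlapped at Epha10 and were separate by a narrow margin at Epha5. Without CTX KCl library 2 neither was called (adjusted p = 0.102 for Epha10 and 0.143 for Epha5), nor was Epha10 without CTX unstimulated library 1 (adjusted p = 0.0665) or Epha5 without CTX unstimulated library 2 (adjusted p = 0.0908). Epha4, which binds ephrins of both types, was the member called lower in MGE, with 26.8, 76.8, 18.5 and 33.8 bp per Mb in the MGE libraries, against 68.6, 129, 82.5 and 81.4 in the CTX libraries (log2 fold change -1.13, SE 0.26, adjusted p = 0.003). Its MGE KCl library 2 overlapped the CTX range, and without CTX KCl library 2 the adjusted p was 0.0615.

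Epha1, Epha3 and Epha7 were not called, with log2 fold changes of 0.38 (SE 0.22), 0.26 (SE 0.19) and -0.09 (SE 0.18), and Epha1 had 46.1 to 55.6 bp per Mb in the MGE libraries and 30.9 to 47.1 in the CTX libraries. Epha2 had called bases in CTX KCl library 1 alone, at 22.0 bp per Mb. Summed over the 9 EphA genes, called length was 971, 1022, 1253 and 1047 bp per Mb in the MGE libraries, against 882, 728, 696 and 634 in the CTX libraries. Every MGE sum was above every CTX sum, with a ratio of the means of 1.46, which was 1.35 at equal called bases and 1.03, with overlap, without scaling.

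Of the 5 EphB receptor genes 1 was called. Ephb1, a receptor of ephrin-B2, was lower in MGE with 29.1, 81.5, 75.5 and 111 bp per Mb in the MGE libraries, against 69.4, 123, 156 and 245 in the CTX libraries (log2 fold change -0.90, SE 0.25, adjusted p = 0.012). The groups overlapped, the call was lost without MGE KCl library 1, CTX KCl library 2 or CTX unstimulated library 2 (adjusted p 0.0663 to 0.135), and at equal called bases the log2 fold change was 0.15. Ephb3 and the kinase-inactive Ephb6, the densest of the family at 42.4 and 23.3 bp per kb of window, had 76.9 to 114 bp per Mb in the MGE libraries and 52.1 to 93.9 in the CTX libraries at Ephb3, and 43.3 to 64.1 bp per Mb in the MGE libraries and 23.1 to 50.9 in the CTX libraries at Ephb6. With Ephb2 and Ephb4 they were not called, at log2 fold changes of 0.02 to 0.40.

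The Slit genes, which code for secreted repellents, differed in direction between each other. Slit2 had 52.6, 116, 129.6 and 35.3 bp per Mb in the MGE libraries, against 25.9, 39.5, 0 and 26.6 in the CTX libraries (log2 fold change 1.56, SE 0.37, adjusted p = 0.0034), and Slit3 had 414, 371, 501 and 322 bp per Mb in the MGE libraries, against 201, 276, 236 and 309 in the CTX libraries (log2 fold change 0.63, SE 0.16, adjusted p = 0.0061). Both were higher in MGE, Slit3 without overlap, and both calls were lost without CTX KCl library 1 (adjusted p = 0.0569 for Slit2 and 0.0642 for Slit3). Slit1, the member most restricted to the nervous system, was lower in MGE with 74.1, 115, 171 and 105 bp per Mb in the MGE libraries, against 147, 196, 157 and 235 in the CTX libraries and overlap (log2 fold change -0.65, SE 0.20, adjusted p = 0.022). The Slit1 call was lost without any of 4 libraries (MGE KCl 1, MGE unstimulated 2, CTX KCl 2 or CTX unstimulated 2, adjusted p 0.112 to 0.145), and with peaks of −log10 q of at least 5 only its log2 fold change was 0.15.

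Among the Slit receptors, Robo1 had 191, 356, 156 and 339 bp per Mb in the MGE libraries, against 316, 448, 370.2 and 395 in the CTX libraries and was called lower in MGE by a small margin (log2 fold change -0.61, SE 0.21, adjusted p = 0.039). Its groups overlapped, and the call held in 5 of 22 alternative settings; leaving out either library 1 of the MGE groups or any CTX library ended it (adjusted p 0.0668 to 0.268). Robo2 had 585, 684, 363 and 399 bp per Mb in the MGE libraries, against 364, 446, 430.3 and 448 in the CTX libraries and was not called between cultures (log2 fold change 0.22, SE 0.13, adjusted p = 0.23). Robo3, known from commissural axons, and Robo4, known from endothelium, have overlapping windows and fell below the filter, with at most 17.2 and 16.1 bp per Mb in any library.

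Among the netrin and netrin receptor genes, Unc5d was called higher in MGE and Ntn4 and Unc5b lower, and the related Unc5cl was also called lower. Ntn4, a netrin of basement membranes, had 22.4, 53.0, 56.7 and 101 bp per Mb in the MGE libraries, against 94.2, 114, 89.7 and 90.4 in the CTX libraries and was called lower with overlap at 1 library (log2 fold change -0.77, SE 0.23, adjusted p = 0.017). Without MGE KCl library 1, MGE unstimulated library 1 or either KCl-treated CTX library it was not called (adjusted p 0.053 to 0.132). Ntn1, the classical attractant, had 21.0, 75.1, 41.6 and 81.2 bp per Mb in the MGE libraries, against 69.5, 111, 56.2 and 109 in the CTX libraries (log2 fold change -0.66, SE 0.29, adjusted p = 0.11). Ntn3 and Ntn5, the densest at 43.6 and 30.0 bp per kb of window, were not called, with 12.3 to 81.9 bp per Mb in the MGE libraries and 62.0 to 89.1 in the CTX libraries at Ntn3, and 44.9 to 67.1 bp per Mb in the MGE libraries and 33.7 to 52.4 in the CTX libraries at Ntn5.

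Unc5d (at chromosome 8, 28646717 to 29219671), a repulsive receptor that also binds FLRT2, had 272, 266, 376 and 275 bp per Mb in the MGE libraries, against 79.4, 177, 112 and 215 in the CTX libraries. The groups were separate (log2 fold change 1.05, SE 0.22, adjusted p = 0.001), but with peaks of −log10 q of at least 5 only the sign turned (log2 fold change -1.52). Unc5b (at chromosome 10, 60762594 to 60831581), a netrin receptor also found in vessels, had 0, 19.4, 17.1 and 31.2 bp per Mb in the MGE libraries, against 42.0, 53.7, 48.7 and 106 in the CTX libraries and was lower in every MGE library (log2 fold change -1.53, SE 0.32, adjusted p = 0.0014). Unc5cl was called lower with 27.3, 27.1, 29.4 and 59.9 bp per Mb in the MGE libraries, against 72.3, 91.2, 31.5 and 102 in the CTX libraries (log2 fold change -0.84, SE 0.28, adjusted p = 0.031), a call that held in 3 of the 8 fits with a library left out and turned to a log2 fold change of 0.84 at equal called bases. Without MGE KCl library 1, MGE unstimulated library 1, CTX KCl library 1 or 2 or CTX unstimulated library 2 its adjusted p was 0.0547 to 0.236.

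Dcc, the attractive netrin receptor, had 147, 227, 185 and 296 bp per Mb in the MGE libraries, against 191, 255, 162 and 129.8 in the CTX libraries and did not pass (log2 fold change 0.20, SE 0.19, adjusted p = 0.48). Unc5c had 150.0 to 233 bp per Mb in the MGE libraries and 129.9 to 203 in the CTX libraries, and Unc5a, at 20.9 bp per kb of window, had 30.3 to 89.1 bp per Mb in the MGE libraries and 43.0 to 109 in the CTX libraries. Neither was called (log2 fold changes 0.20 and -0.22, adjusted p = 0.45 and 0.53). Unc50 had 40.3 to 57.3 bp per Mb in the MGE libraries and 28.6 to 46.5 in the CTX libraries and was not called either (adjusted p = 0.3).

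To see where within the genes the cultures differed, the peaks of the 8 libraries were joined into sites where they overlapped or touched, a step added after the data had been seen. Sites with a peak in each MGE library and none of CTX lay in the window of 14 of the 67 genes tested (20.9%, against 9.45% of all genes tested). Those with a peak in each CTX library and none of MGE lay at 23 (34.3%, against 17.6%). Guidance genes are long, with a median span of 60.9 kb against 24.2 kb over all genes tested, and the part of this length in the counts was not tested. Sites shared by all 8 libraries were present at 52 (77.6%, against 86.1%).

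Sema6d held 5 MGE-only sites and 1 CTX-only site. The MGE-only ones lay on chromosome 2 at 124117881 to 124119003, 124132212 to 124132831, 124133111 to 124133670, 124467305 to 124467856 and 124602381 to 124603386, all inside the gene span. At the last of these peaks covered 792, 556, 964 and 902 bp in the MGE libraries and 0 bp in each CTX library. Plxna2 had the reverse counts, with 5 CTX-only sites and 1 MGE-only site. Its longest CTX-only site, on chromosome 1 at 194612514 to 194614413, lay upstream of the gene and was covered over 0 bp in each MGE library, against 770, 1691, 1172 and 1515 bp in the CTX libraries.

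**Figure D3:**
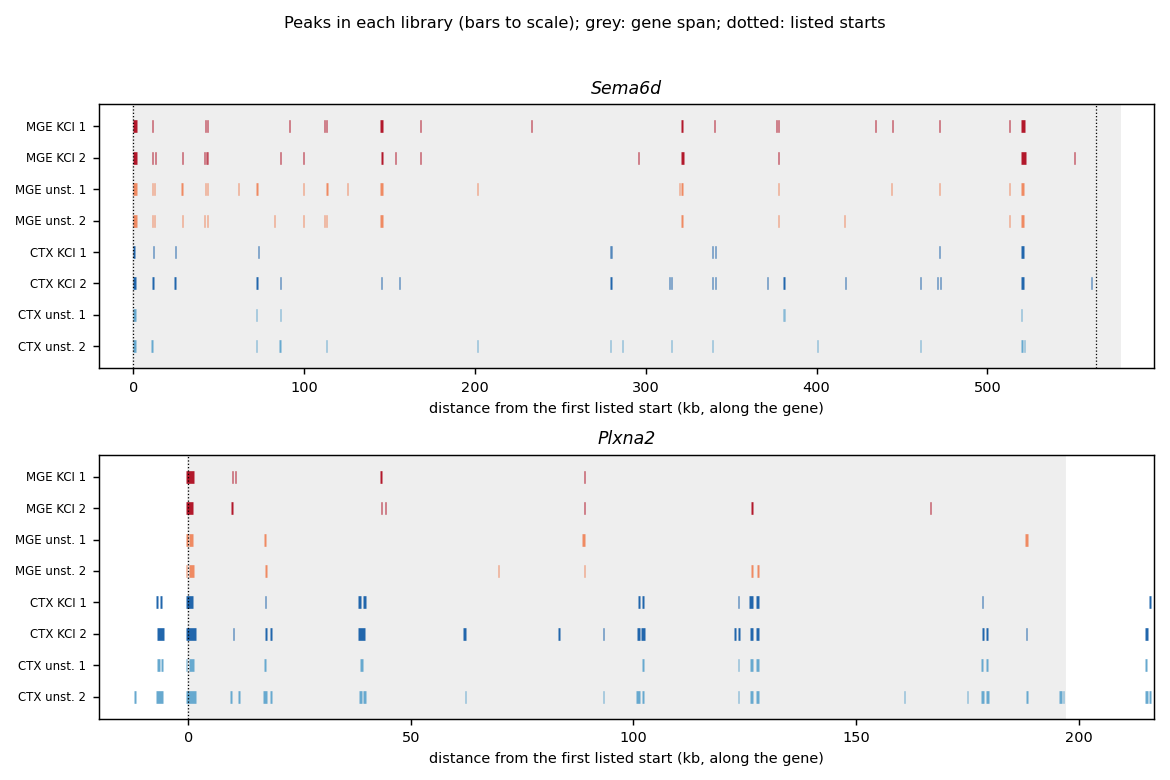
Peaks of each library as bars along Sema6d and Plxna2, by distance in kb from the first listed transcript start, with MGE libraries above CTX libraries, the gene span in grey and listed starts dotted. Sema6d shows 5 positions with bars in all 4 MGE rows and no CTX row, and Plxna2 shows 5 positions with bars in all 4 CTX rows and no MGE row.

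Another count used 500 bp bins at least 50% covered, in runs of 2 or more. A bin under 50% covered counted as not called, so a region of 1 culture can hold some called bases of the other. By this count Ephb3 and Slit3 had an MGE-only region (background 1.41% of genes tested) and Robo2 and Unc5c a CTX-only region (background 2.18%). The Slit3 region, on chromosome 11 at 35261001 to 35262000 inside the gene, was covered over 714, 1000, 971 and 902 bp in the MGE libraries, against 0, 0, 21 and 78 bp in the CTX libraries. The Ephb3 region, on chromosome 16 at 21187501 to 21188500 outside the gene, was covered over 605, 771, 545 and 853 bp in the MGE libraries, against 433, 0, 0 and 0 bp in the CTX libraries. The Robo2 region, on chromosome 16 at 75365501 to 75366500, was covered over 0 bp in each MGE library, against 978, 752, 762 and 804 bp in the CTX libraries. The Unc5c region, on chromosome 3 at 141600501 to 141601500, was likewise at 0 bp in MGE, against 600, 860, 882 and 853 bp in CTX.

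Robo2 was not called between cultures by its total, while single sites in it had peaks from 1 culture and not from the other. It held 4 MGE-only and 5 CTX-only sites over a span of 1555 kb. Its 3 listed promoters, 250 bases before to 50 after a transcript start in the RefSeq annotation of GRCm38.p6, all on the minus strand, are printed because the libraries differ at them. The promoter at chr16:74411776-74412075 was touched by peaks in all 8 libraries, that at chr16:75092721-75093020 in 3 MGE and 2 CTX libraries, and the outermost, at chr16:75447244-75447543, in 0 MGE and 3 CTX libraries. Capitals mark the bases inside a peak in every library whose peaks reach the promoter.
Robo2 inner promoter: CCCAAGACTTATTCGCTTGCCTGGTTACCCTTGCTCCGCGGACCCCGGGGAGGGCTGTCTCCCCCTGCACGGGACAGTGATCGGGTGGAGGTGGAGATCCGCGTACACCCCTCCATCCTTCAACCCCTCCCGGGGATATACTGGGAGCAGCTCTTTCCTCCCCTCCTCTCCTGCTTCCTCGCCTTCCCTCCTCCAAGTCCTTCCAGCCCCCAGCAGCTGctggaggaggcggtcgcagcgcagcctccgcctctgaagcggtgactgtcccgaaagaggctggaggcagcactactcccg
Robo2 middle promoter: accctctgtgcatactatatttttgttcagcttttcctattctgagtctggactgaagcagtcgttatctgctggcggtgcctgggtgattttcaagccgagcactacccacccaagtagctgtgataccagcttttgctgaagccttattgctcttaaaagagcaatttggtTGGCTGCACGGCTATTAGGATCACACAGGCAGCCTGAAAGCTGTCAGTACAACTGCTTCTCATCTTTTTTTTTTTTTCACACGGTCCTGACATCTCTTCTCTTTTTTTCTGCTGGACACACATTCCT
Robo2 outermost promoter: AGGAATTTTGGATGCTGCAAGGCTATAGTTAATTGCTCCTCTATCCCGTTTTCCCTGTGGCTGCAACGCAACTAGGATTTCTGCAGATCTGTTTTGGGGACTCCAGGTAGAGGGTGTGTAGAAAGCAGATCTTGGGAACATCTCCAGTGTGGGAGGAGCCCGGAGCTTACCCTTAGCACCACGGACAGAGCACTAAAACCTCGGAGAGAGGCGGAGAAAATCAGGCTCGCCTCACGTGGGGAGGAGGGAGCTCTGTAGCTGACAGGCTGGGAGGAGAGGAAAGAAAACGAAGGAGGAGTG

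Called bases in the outermost Robo2 promoter numbered 0 in each MGE library, against 300, 300, 0 and 300 in the CTX libraries, where 300 is the whole window. The CTX-only region named above lies 81.3 kb inside the gene from that start. Over all their listed promoters, Efna1 and Sema6b also had peaks in 0 MGE and 3 CTX libraries. The share of all promoters with that pattern was not counted. No guidance gene with a listed promoter had one called in the 4 MGE libraries alone (background 0.232% of 11630 genes with a promoter called in at least 1 library) or in the 4 CTX libraries alone (background 1.08%). Promoters were listed for 61 of the 71 genes, 77 in all. Of these 61 genes 46 had a promoter called in at least 1 library, and 19 of the 46 in all 8 (41.3%, against 43.4% of the 11630).

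Promoters of Sema5b and Ephb3 had peaks in 1 MGE and 4 CTX libraries, a pattern whose share among all genes was not counted. At Ephb3 they covered 0, 17, 0 and 0 bp in the MGE libraries, against 58, 79, 9 and 78 bp in the CTX libraries. At Sema5b, where the culture call held with each library left out, they covered 0, 10, 0 and 0 bp in the MGE libraries, against 37, 109, 47 and 64 bp in the CTX libraries. The Sema5b sequence, at chr16:35541112-35541411 on the plus strand of GRCm38.p6 from RefSeq, is printed with the bases covered in all 5 of these libraries in capitals.
Sema5b promoter: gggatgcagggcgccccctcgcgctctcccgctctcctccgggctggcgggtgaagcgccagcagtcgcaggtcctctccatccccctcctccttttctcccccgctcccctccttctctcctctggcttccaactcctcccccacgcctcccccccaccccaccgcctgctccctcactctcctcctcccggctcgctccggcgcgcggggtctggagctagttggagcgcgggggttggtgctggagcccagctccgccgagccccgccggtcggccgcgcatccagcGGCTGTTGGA

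The design then asks what depolarisation changes. In MGE cultures KCl raised called length at 2 of the 67 guidance genes, Sema3e and Robo2, and lowered it at 0, against 2.19% and 0.954% of all genes tested (limma, adjusted p under 0.05). At an unadjusted p under 0.05 there were 5 higher and 3 lower, against 9.21% and 5.81% of all genes tested. The direction of these calls turned with 1 library. Without MGE KCl library 2, 0 guidance genes were called higher and 3 lower, namely Unc5b, Ntn4 and Ephb1 (log2 fold changes -1.74, -1.41 and -1.38, adjusted p = 0.0322, 0.0259 and 0.0308), and over all genes 203 were higher and 302 lower, against 314 and 137 with it. Without MGE unstimulated library 1, Sema3e and Ntn3 were called higher and Ntn4 lower, and without MGE unstimulated library 2, Sema5a and Efnb1 were called higher; these genes are named here after their values were seen. Called length at a list of 8 activity-regulated genes was 3.05 times as high with KCl in MGE and 1.94 times in CTX. The median log2 fold change over the guidance genes was -0.09 in MGE, and 0.00 over all genes tested. Astrocyte markers summed to 289 and 467 bp per Mb with KCl in MGE, against 232 and 215 unstimulated, with 1 of 6 called, Slc1a2, which was higher. Cortical glutamatergic markers summed to 504 and 659.9 bp per Mb with KCl in MGE, against 444 and 416 unstimulated, with 0 of 11 called. Progenitor markers summed to 231 and 383 bp per Mb with KCl in MGE, against 229 and 226 unstimulated, with 1 of 6 called, Vim, which was higher. Endothelial and mural markers summed to 158 and 199.8 bp per Mb with KCl in MGE, against 235 and 220.3 unstimulated, with 0 of 3 called. The part of these markers in the results with KCl was not tested.

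Sema3e (at chromosome 5, 14025276 to 14256689), a secreted semaphorin that binds plexin D1 directly, had 41.1 and 33.7 bp per Mb in the KCl-treated MGE libraries, against 13.4 and 0 in the unstimulated ones. It was higher in both KCl libraries (log2 fold change 1.63, SE 0.44, adjusted p = 0.047). In CTX it had 78.3 and 56.0 bp per Mb in the KCl-treated CTX libraries, against 12.1 and 10.2 in the unstimulated ones, again higher in both, but the adjusted p missed the threshold (log2 fold change 1.85, SE 0.44, adjusted p = 0.062). The difference of the log2 responses, MGE minus CTX, was -0.22 (SE 0.63), smaller than its SE.

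The MGE call of Sema3e rests on few libraries. It was lost without MGE KCl library 1 (adjusted p = 0.185), MGE KCl library 2 (0.0699), MGE unstimulated library 2 (0.384), CTX KCl library 1 (0.13) or CTX KCl library 2 (0.128), the fold change staying positive in each. It held in 9 of 18 alternative settings. Leaving out a CTX library changes the spread used by the fit and not the MGE fold change. Averaged over both cultures, a contrast added after the data had been seen, Sema3e was higher with KCl (log2 fold change 1.74, SE 0.31, adjusted p = 0.0028). It was the 1 guidance gene with all 4 KCl libraries above all 4 unstimulated ones (background 4.65% of genes tested), and no guidance gene had them all below (background 2.06%). Its place among the genes tested rests on those same KCl libraries.

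Part of the called length at Sema3e with KCl lay far from its start. In CTX, peaks lay 144.2 to 145.8 kb from the start. They covered 446 and 726 bp in KCl library 1 and 474 and 756 bp in KCl library 2. In MGE, a peak 190.3 kb from the start covered 348 bp in KCl library 1 and 314 bp in KCl library 2. No unstimulated library had a peak at either place, and neither place was shared between the cultures. The peak at the Sema3e start was longer with KCl. It ran from 38 to 572 bp after the listed start in MGE KCl library 1 and from 48 bp before to 717 bp after it in library 2, against 176 to 483 bp after it in MGE unstimulated library 1 and no peak in library 2. In CTX it ran from 142 bp before to 912 bp after the start and from 45 bp before to 651 bp after it with KCl, against 244 to 528 bp and 139 to 577 bp after it in the unstimulated libraries. Peaks thus reached the listed promoter in all 4 KCl libraries and in 0 unstimulated ones, over 12 and 98 bp in MGE and 192 and 95 bp in CTX. Sema3e was the only guidance gene with that pattern (background 0.714% of genes with a called promoter).

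The Sema3e promoter is printed for this reason, from RefSeq at chr5:14025026-14025325, plus strand of GRCm38.p6. Capitals mark the 12 bases inside a peak in every KCl library.
Sema3e promoter: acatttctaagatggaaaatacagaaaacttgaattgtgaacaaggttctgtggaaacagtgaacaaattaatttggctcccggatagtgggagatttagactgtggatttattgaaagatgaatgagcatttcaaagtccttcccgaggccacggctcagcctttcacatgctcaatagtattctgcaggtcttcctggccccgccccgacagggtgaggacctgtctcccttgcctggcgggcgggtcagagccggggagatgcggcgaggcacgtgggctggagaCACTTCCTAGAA

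The activity-linked AP-1 motif TGANTCA, the cyclic AMP response element TGACGTCA and the homeodomain core TAATTA were searched on both strands of all promoters. None of the 5 promoters printed here held any of them. AP-1 was found in 7.85% of 32619 listed promoters and in 3 of the 77 guidance gene promoters, those of Sema4c, Sema4d and Sema6b. The cyclic AMP response element was found in 1.80% of all and at Epha2, and TAATTA in 5.25% of all and at Efna1, Epha5 and Robo3.

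**Figure D4:**
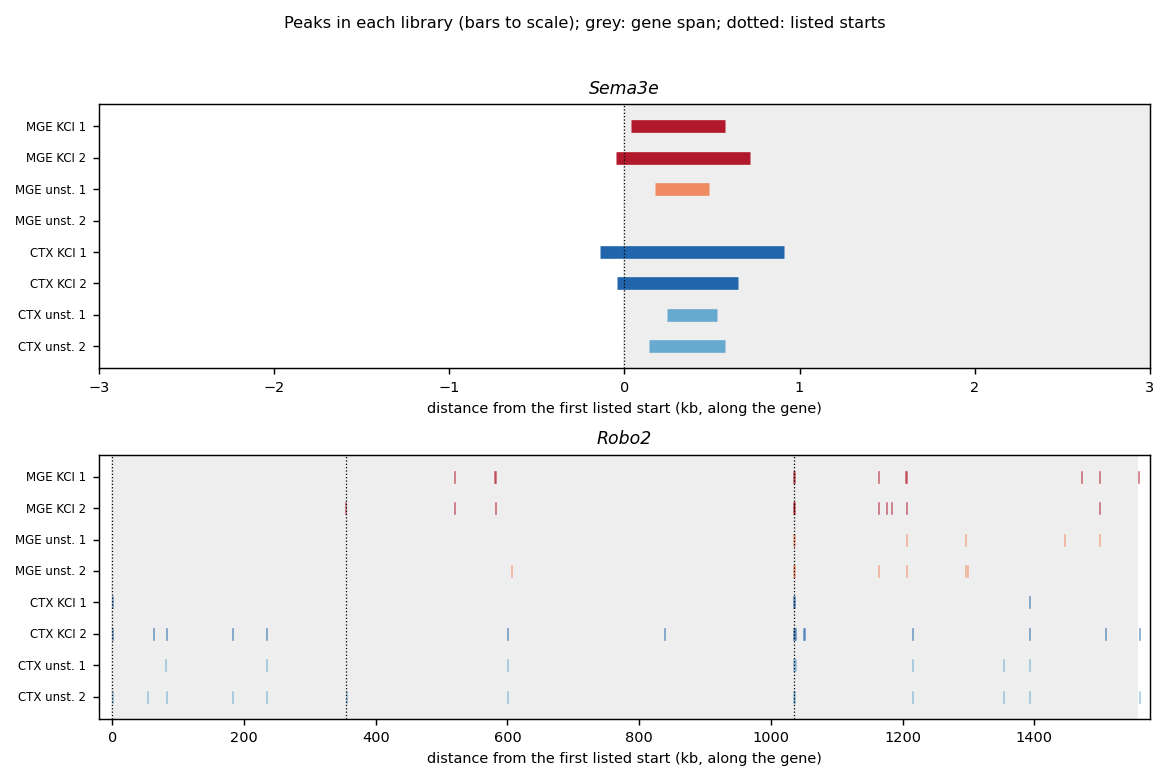
Peaks of each library as bars at the start of Sema3e (3 kb to each side) and along Robo2, by distance in kb from the first listed transcript start, with MGE above CTX and KCl above unstimulated, the gene span in grey and listed starts dotted. At Sema3e the 4 KCl bars are longer than the 3 unstimulated bars, and MGE unstimulated library 2 has none.

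Robo2 had 585 and 684 bp per Mb in the KCl-treated MGE libraries, against 363 and 399 in the unstimulated ones. Both KCl values lay above both unstimulated ones (log2 fold change 0.72, SE 0.18, adjusted p = 0.027). In CTX it had 364 and 446 bp per Mb in the KCl-treated CTX libraries, against 430.3 and 448 in the unstimulated ones, with overlap and a log2 fold change of -0.12 (SE 0.18). The difference of the responses, 0.84 (SE 0.25) on the log2 scale, did not pass (adjusted p = 0.34). The MGE call was lost without MGE KCl library 2 (adjusted p = 0.153), MGE unstimulated library 1 (0.123), MGE unstimulated library 2 (0.0614), CTX KCl library 1 (0.0665) or CTX KCl library 2 (0.0652). It held in 9 of 19 alternative settings, and the fold change was positive in all 19. In some of these, as with a CTX library left out, the MGE fold change cannot change, only its spread in the fit.

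The other Slit and Robo genes showed no call with KCl in MGE. Slit1 had 74.1 and 115 bp per Mb in the KCl-treated MGE libraries, against 171 and 105 in the unstimulated ones, and Slit3 414 and 371 bp per Mb in the KCl-treated MGE libraries, against 501 and 322 in the unstimulated ones. Robo1, with 191 and 356 bp per Mb in the KCl-treated MGE libraries, against 156 and 339 in the unstimulated ones, varied more between its libraries than with treatment. Among the remaining genes with larger differences in MGE that missed the threshold, Sema5a had 73.8 and 101 bp per Mb in the KCl-treated MGE libraries, against 23.6 and 55.2 in the unstimulated ones (log2 fold change 1.04, SE 0.38, adjusted p = 0.16). Ntn4 had 22.4 and 53.0 bp per Mb in the KCl-treated MGE libraries, against 56.7 and 101 in the unstimulated ones (log2 fold change -0.93, SE 0.33, adjusted p = 0.14), and Nrp2 had 89.5 and 148 bp per Mb in the KCl-treated MGE libraries, against 51.8 and 79.9 in the unstimulated ones (log2 fold change 0.75, SE 0.29, adjusted p = 0.2).

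In CTX cultures 0 guidance genes were called higher and 0 lower with KCl by limma, against 0.362% and 0.160% of all genes tested. At an unadjusted p under 0.05 there were 7 higher and 4 lower, against 7.26% and 3.47% of all genes tested. With 1 library left out the calls were of Sema3e (without any 1 of the 4 MGE libraries, adjusted p 0.0030 to 0.0348), of Epha8 and Plxnd1, both lower (without MGE unstimulated library 1 or 2), and of Epha10 and Slit2, both higher (without CTX unstimulated library 2). Astrocyte markers summed to 596 and 635 bp per Mb with KCl in CTX, against 504 and 586 unstimulated, those of the oligodendrocyte lineage to 606 and 669 bp per Mb with KCl in CTX, against 482 and 606 unstimulated, and MGE and GABAergic markers to 1912 and 2002 bp per Mb with KCl in CTX, against 1809.8 and 1786 unstimulated, and both KCl values lay above both unstimulated ones in each list, by under 1 bp per Mb in that of the oligodendrocyte lineage. Microglia markers summed to 68.4 and 72.3 bp per Mb with KCl in CTX, against 96.3 and 112 unstimulated, and endothelial and mural markers to 180.1 and 207 bp per Mb with KCl in CTX, against 317 and 266 unstimulated, lower in both KCl libraries. Of all these markers Flt1, an endothelial one, was called, and it was lower. The part of these markers in the results with KCl in CTX was not tested. Besides Sema3e the lowest adjusted p belonged to Epha8, with 0 and 9.37 bp per Mb in the KCl-treated CTX libraries, against 32.7 and 23.3 in the unstimulated ones (log2 fold change -1.44, SE 0.37, adjusted p = 0.084). Epha6 had 203 and 176 bp per Mb in the KCl-treated CTX libraries, against 134 and 87.3 in the unstimulated ones (log2 fold change 0.75, SE 0.24, adjusted p = 0.18) and Sema3a had 213 and 138 bp per Mb in the KCl-treated CTX libraries, against 94.9 and 85.3 in the unstimulated ones (log2 fold change 0.86, SE 0.31, adjusted p = 0.24). Both KCl values lay above both unstimulated ones at Epha6 and Sema3a, and below them at Epha8. The median log2 fold change was 0.03 over the guidance genes and 0.07 over all genes tested.

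Separation of the 2 KCl from the 2 unstimulated libraries was common everywhere. In MGE it was seen at 13 guidance genes upward and 16 downward (19.4% and 23.9% of 67), against 22.7% and 20.9% of all genes tested. In CTX it was seen at 11 upward and 13 downward (16.4% and 19.4%), against 22.9% and 12.6%. The response differed between cultures at 0 guidance genes by limma (background 0.111%), with 5 more positive and 5 more negative in MGE at an unadjusted p under 0.05 (background 3.17% and 3.36%).

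Averaged over both cultures, 2 guidance genes were higher with KCl and 2 lower, against 3.63% and 1.73% of all genes tested. Besides Sema3e, Efna5 was higher: it had 131 and 119 bp per Mb in the KCl-treated MGE libraries, against 93.3 and 75.9 in the unstimulated ones, and 69.5 and 73.6 bp per Mb in the KCl-treated CTX libraries, against 30.1 and 41.8 in the unstimulated ones (log2 fold change 0.68, SE 0.19, adjusted p = 0.043). Epha8 and Ephb1 were lower, at -1.001 (adjusted p = 0.03) and -0.88 (adjusted p = 0.044) in log2 fold change. Ephb1 had 29.1 and 81.5 bp per Mb in the KCl-treated MGE libraries, against 75.5 and 111 in the unstimulated ones, and 69.4 and 123 bp per Mb in the KCl-treated CTX libraries, against 156 and 245 in the unstimulated ones. Treated and untreated values overlapped within MGE at Ephb1, and across the cultures at all 3 genes.

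**Figure D5:**
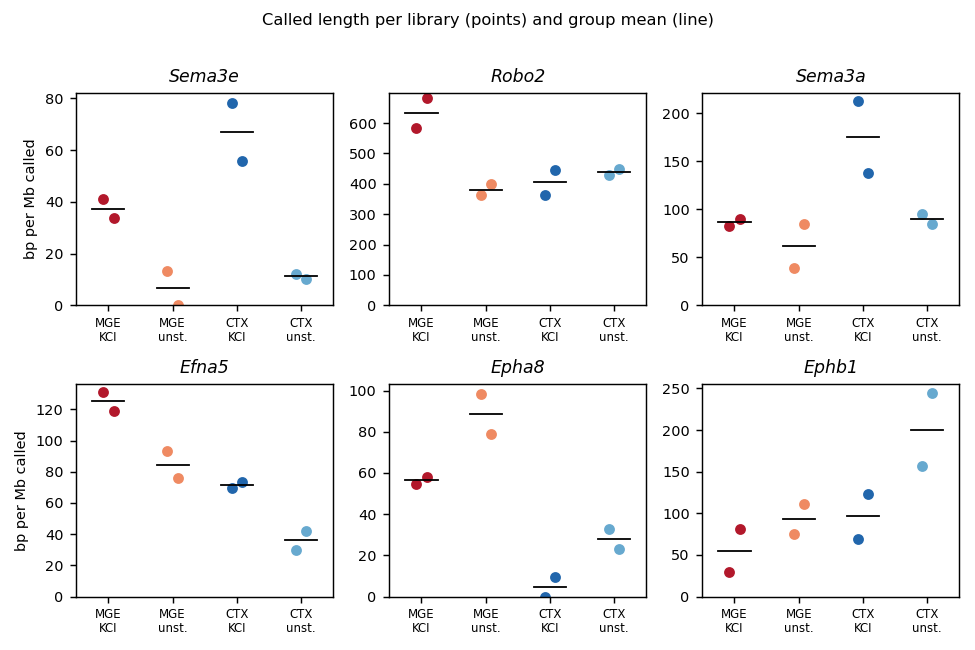
Called length in bp per Mb called of 6 guidance genes, with 1 point per library, a line at each group's mean, and KCl to the left of unstimulated within each culture. Sema3e lies at 33.7 bp per Mb or more with KCl and at 13.4 or less without, and Robo2 lies at 585 bp per Mb or more with KCl in MGE and at 448 or less in the other 3 groups.

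All 71 genes together had summed KCl to unstimulated ratios of 0.964 in MGE and 0.997 in CTX, which without scaling to the bases called were 1.177 and 1.08. Class 3 semaphorins had 467 and 495 bp per Mb with KCl in MGE, against 345 and 415 unstimulated, and 679.6 and 529 with KCl in CTX, against 378 and 432 unstimulated. The ratios of means, 1.26 and 1.49, stayed above 1 without scaling and at equal called bases. Ephrin-A genes had ratios of 1.29 and 1.17, with overlap in CTX, and both stayed above 1 under the other 2 scalings. EphB genes had a ratio of 0.975 in MGE, with overlap, which turned to 1.20 without scaling, and of 0.656 in CTX, which was 0.706 without scaling and 0.614 at equal called bases.

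Plexin genes had 986 and 1048 bp per Mb with KCl in MGE, against 1159 and 1159 unstimulated, and 1220.1 and 1238 bp per Mb with KCl in CTX, against 1313 and 1387 unstimulated. Both KCl sums lay below both unstimulated ones in each culture, with ratios of 0.877 in MGE and 0.91 in CTX, which without scaling were 1.07, turned in direction, and 0.996. EphA genes were lower with KCl in MGE (ratio 0.867) and higher in CTX (ratio 1.21), without overlap in either, but without scaling the MGE ratio turned to 1.05, and the difference between the cultures was not tested on the sums. Robo genes were higher with KCl in MGE (ratio 1.43, and 1.81 without scaling and 1.25 at equal called bases) and overlapped in CTX (ratio 0.956). Most of that MGE difference lay at Robo2, already named above. Robo1 overlapped between the states in MGE, and Robo3 and Robo4 were below the filter. Semaphorins of the other classes and the Dcc and Unc5 genes were lower with KCl in MGE (ratios 0.876 and 0.852), which turned to 1.05 and 1.04 without scaling, and overlapped in CTX. The sums of the neuropilin, ephrin-B, Slit and netrin genes overlapped between KCl and unstimulated libraries in both cultures.

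By regions of at least 2 bins, KCl-gained regions in MGE lay in the windows of Efna2, Ephb4 and Nrp2 (4.48% of 67, background 3.70%). In CTX they lay at Sema3f, Sema5b and Sema6d (4.48%, background 2.93%). No guidance gene had a region lost with KCl, in MGE (background 0.856%) or CTX (background 1.11%). The region at Nrp2, on chromosome 1 at 62706001 to 62707000 and 3.18 kb inside the gene from its listed start, was covered over 565 and 1000 bp with KCl in MGE, against 0 and 0 bp unstimulated. In CTX it was covered over 746 and 958 bp with KCl, against 333 and 866 bp unstimulated.

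The gained regions in the windows of Efna2, Ephb4 and Sema3f lay in the neighbouring genes Cirbp, Slc12a9 and Gnat1. Those of Sema5b and Sema6d lay inside the genes themselves. The Ephb4 region had peaks in both states, over 678 and 759 bp with KCl in MGE, against 315 and 237 bp unstimulated. The Sema6d region, on chromosome 2 at 124101501 to 124102500, was covered over 717 and 851 bp with KCl in CTX, against 0 and 193 bp unstimulated, and was covered over 427 to 760 bp in all 4 MGE libraries. The Sema5b region, on chromosome 16 at 35596501 to 35597500, was covered over 837 and 756 bp with KCl in CTX, against 0 and 168 bp unstimulated, and over 0 bp in MGE. Counted as joined sites, KCl-only sites lay at Dcc, Epha10 and Sema3g (4.48%, background 3.94%) and unstimulated-only sites at Ntn1 and Plxna1 (2.99%, background 0.905%).

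The wider pathway was read from a list of 65 further guidance genes, of which 62 were tested. Between cultures 9 were called higher in MGE (14.5%, against 11.2% of all genes tested), among them the cell adhesion gene L1cam and the small GTPase gene Rhoa, and 12 lower (19.4%, against 12.1%), among them the Sonic hedgehog coreceptors Boc and Cdon and the netrin antagonist Draxin. With KCl in MGE the Slit-Robo effector Srgap1 was higher (1.61%, against 2.19%) and the adhesion gene Cntn2, the Nogo receptor complex gene Lingo1 and the GTPase gene Rnd1 were lower (4.84%, against 0.954%). In CTX 0 were called in either direction.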

How the data were processed

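Broad-peak lists of H3K27ac from 8 libraries were used, 1 per library, not pooled. The submitters' processing notes name MACS3 3.0.0a7, Bowtie2 2.3.3, deepTools 3.4.3, cutadapt 1.18 and the mm10 build; use of an input is not given in the sources used here. Each peak's fold enrichment is a ratio deposited by the authors, as are its −log10 p and −log10 q values and its score, and these served only to describe or filter peaks. The lowest −log10 q per list was 1.30 to 1.35. Read counts were not used, so depth is unknown and no counting interval is given.

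Called bases per gene were computed in Python 3.11.15 (numpy 2.4.6, pandas 2.3.3; 29 peaks on other chromosomes were left out) from RefSeq spans and promoters of GRCm38.p6, the coordinates of mm10. Values, as log2(bp per Mb + 10), were tested in limma 3.58.1 (R 4.3.3; trend, 4 group means, two-sided) over 14364 genes with a mean of at least 20 bp per Mb, with Benjamini-Hochberg adjustment. The pseudocount understates changes of low genes. The fit was tested on simulated data. A log2 change of 1 was recovered at 86% of changed genes between cultures and at 47% with KCl in MGE. With KCl in CTX it was recovered at 55%, and for the difference of responses at 18%. A log2 change of 2 was recovered at 99%, 97%, 100% and 86% in the same order. Changes of 1 with KCl can thus be missed. The smallest exact permutation p of 4 against 4 libraries is 0.029 and of 2 against 2 is 0.33, so single regions and promoters were not tested.

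Genes were named by rule: those called (at most 12 per comparison by size), those with culture-only or KCl-dependent regions, the 2 densest per family and a set of well-known members; other called genes are named too. Members and lists were chosen with earlier results of these data known. Alternatives covered scaling, peak threshold, window, pseudocount, filter, robust fitting, replicate block and each library left out. Replicate numbers were not used as pairs.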

Additional observations from a re-analysis of the deposited data

Results flagged for a closer look

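In 160 groups of 4 libraries of a culture, 7 held a library far from the other 3 by Dixon's criterion at the 95% level, where chance gives about 1 in 20. In MGE, Unc5cl was high in unstimulated library 2 at 59.9 bp per Mb, and Unc5d in unstimulated library 1 at 375.5 bp per Mb. Plxnd1 had 28.97 bp per Mb in MGE unstimulated library 1 and 0 in the other MGE libraries. Sema3a was low in MGE unstimulated library 1 at 38.82 bp per Mb, and Plxnb1 in MGE KCl library 1 at 48.8 bp per Mb. The sum over all 71 genes was low in MGE KCl library 1 at 7787 bp per Mb. In CTX, Sema6c was high in KCl library 1 at 57.4 bp per Mb.

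At 3 genes values moved in opposite directions with KCl in the 2 cultures, both libraries of each group on the same side, without passing the test of the difference. The share of all genes with this pattern was not counted, so the 3 genes are not shown to exceed it. Separation within 1 culture was common over all genes tested, at 22.7% upward and 20.9% downward in MGE and 22.9% and 12.6% in CTX. The log2 response in MGE minus that in CTX was -1.115 at Ntn4 (adjusted p = 0.62), which was lower with KCl in MGE (22.4 and 53.0 bp per Mb in the KCl-treated MGE libraries, against 56.7 and 101 in the unstimulated ones) and higher in CTX (94.2 and 114 bp per Mb in the KCl-treated CTX libraries, against 89.7 and 90.4 in the unstimulated ones). It was 1.053 at Sema4d (adjusted p = 0.53), with 64.4 and 61.7 bp per Mb in the KCl-treated MGE libraries, against 34.6 and 48.4 in the unstimulated ones, and 71.6 and 98.1 bp per Mb in the KCl-treated CTX libraries, against 113 and 141 in the unstimulated ones. It was 0.8287 at Ephb2 (adjusted p = 0.56), with 186 and 182 bp per Mb in the KCl-treated MGE libraries, against 172 and 152 in the unstimulated ones, and 106 and 116 bp per Mb in the KCl-treated CTX libraries, against 178 and 181 in the unstimulated ones.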

How the results depend on the processing

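The number of guidance genes called between cultures, 30, was 7 without scaling, 18 at equal called bases, 1 with peaks of −log10 q of at least 5 and 16 in the unstimulated libraries alone, and 17 to 31 with 1 library left out. Over all genes, 3344 became 1760 without scaling, 2150 with the gene span only, 1974 in the KCl libraries, 1844 in the unstimulated libraries and 336 with strict peaks, and 2298 to 3446 with 1 library left out. The sign reversed for Ephb1 (0.15) and Unc5cl (0.84) at equal called bases, and for Nrp2 (0.70), Slit1 (0.15) and Unc5d (-1.52) with strict peaks. The causes of these changes were not tested.

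For KCl in MGE the 2 guidance genes called became 0 without scaling, at equal bases, after centring, without the filter and with strict peaks, 4 with a 50 kb window, and 0 to 3 with 1 library left out, where the 2 higher and 0 lower became 0 higher and 3 lower without MGE KCl library 2. Over all genes, 451 became 2, 70, 164 and 3 without scaling, at equal bases, after centring and with strict peaks, 795 with a pseudocount of 50, 679 with the robust fit, and 181 to 619 with 1 library left out. For KCl in CTX the 0 guidance genes became 1 at equal bases, 3 with a pseudocount of 50, 2 with the robust fit, and 0 to 3 with 1 library left out. Over all genes, 75 became 41 without bases in other genes, 0 without scaling, 242 at equal bases, 44 with the gene span only, 7 after centring, 38 without the filter, 0 with strict peaks, 325 with a pseudocount of 50, 211 with the robust fit, and 2 to 301 with 1 library left out. For the difference of responses 16 genes became 0 without scaling, at equal bases and with strict peaks, 8 with the gene span only, 2 after centring and without the filter, 70 with a pseudocount of 50, 63 with the robust fit, and 2 to 99 with 1 library left out, and the guidance genes called remained 0.

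The summed length of all guidance genes, MGE over CTX, was 1.05, and 0.730 without scaling, 1.13 at equal bases and 1.03 to 1.07 with 1 library left out. KCl over unstimulated was 0.964 in MGE (1.177 without scaling, 1.25 with strict peaks, 0.935 to 0.993 with 1 library left out) and 0.997 in CTX (1.08, 1.10 and 0.943 to 1.06). Genes with MGE-only regions (2) became 12 with bins touched by any base and 11 with single bins, and those with CTX-only regions (2) 16, 21 and 0 with strict peaks. Gained regions in MGE (3) became 14, 30 and 9 with strict peaks, and in CTX (3) 16 and 34. Lost regions (0) became 9 and 17 in MGE and 11 and 25 in CTX.

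Deviations of same-numbered libraries from their group means correlated at -0.12 to 0.33, over 0.1 in 3 of 6 pairs of groups (CTX KCl with CTX unstimulated, and MGE KCl with each of these), and not in all, so the numbers were not taken as pairs. With a replicate block 31 guidance genes and 3827 genes in all were called between cultures, and 10 genes for the difference of responses. Since 1 pair of groups deviated in opposite ways by number (correlation -0.12), the numbers of the unstimulated MGE libraries were also crossed, after the data had been seen, which called 28 guidance genes. Depth is unknown, and the length of a list limits which weak peaks it holds.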
